A study of Mus musculus with 29 samples.

Results

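Exonic bins of the mouse anterior cingulate cortex (ACC) that were listed as changed 4 weeks after context plus shock, and not 4 weeks after the context alone, numbered 448 and belonged to 362 gene identifiers. A bin is a stretch of exon between neighbouring exon boundaries of a gene's transcripts, and each gene's bins are numbered E001, E002 and so on. The members were chosen by the deposited adjusted p: a bin had to stand in the authors' list for context plus shock against naive mice, which ends at an adjusted p of 0.1, and to be missing from the list for context alone against naive mice. Bin E001 of every gene was left out, which removed 60 bins. The members were 16.6% of the 2699 bins listed in ACC after context plus shock, and 448 of the 5317 distinct bins listed in any table of the series. Their number, size and direction in ACC follow from that choice and are given as a description, with no test.

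Most neuronal genes make several transcripts, through choice of promoter, exon and polyadenylation site, and the brain uses more of these alternatives than most tissues. A bin's fold change is read against the other bins of its gene, so that it describes where along the transcript the reads lay and not how much of the gene's RNA there was. The ACC is a cortical area that takes part in the recall of older memories, and the hippocampal field CA1 is needed to form a contextual memory.

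The libraries came from male mice of strain C56BL/6 (spelled as the labels have it), 3 months old and housed one to a cage. In contextual fear conditioning one group met a new chamber and then a footshock of 0.7 mA, one met the chamber only, and naive mice were the controls. In trained mice ACC was taken 4 weeks after training and CA1 1 h after it, and polyadenylated RNA was sequenced. There were 5 naive, 5 context and 5 context plus shock libraries of ACC, and 5, 5 and 4 of CA1. The labels give the naive libraries the starting hour, not 4 weeks or 1 h. In a comparison with naive mice, training and the time passed therefore cannot be told apart. Both trained groups of a region were compared with the same naive libraries, and whether the naive mice of the regions were the same animals is not given in the sources used here.

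The deposited tables give 1 base mean (normalised counts averaged over libraries), 1 log2 fold change and 1 p per gene or bin. Values per library are not in these tables, so the depth of each library is unknown and no SD over mice is given. A positive fold change is higher in trained mice. In the tissue check, the cortical genes Cux2, Rorb and Tbr1 had base means of 1613, 680.2 and 3829 per the authors' deposited table for ACC after shock. Genes of the neighbouring striatum were also read there, and Adora2a, Drd2 and Ppp1r1b had log2 fold changes of 1.00, 0.84 and 0.53 per the authors' deposited table, each called higher (deposited adjusted p of 0.000271, 0.0277 and 0.000671). Over the whole list of striatal and thalamic markers, 4 of 18 measured genes were called higher and 3 lower, with a median log2 fold change of 0.12. Cux2 was called lower, at -0.28 per the authors' deposited table (adjusted p = 1.58e-05). No gene of the list of striatal and thalamic markers held a member bin, and the part of tissue outside ACC in the values below was not tested.

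The sequences of 11 members placed on the mm10 genome are shown because the results below turn on them. They come from GENCODE M21 and run 5′ to 3′ on the strand of the gene. The first pair is from Herc1, which encodes a giant ubiquitin ligase: the bin near the 5′ end was lower and the bin near the 3′ end was higher after context plus shock.
Herc1 E006, chr9:66384993-66385187, plus strand: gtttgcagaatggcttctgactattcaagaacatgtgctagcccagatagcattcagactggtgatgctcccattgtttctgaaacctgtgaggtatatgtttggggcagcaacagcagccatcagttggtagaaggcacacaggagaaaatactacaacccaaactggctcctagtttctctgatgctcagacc
Herc1 E093, chr9:66501930-66502082, plus strand: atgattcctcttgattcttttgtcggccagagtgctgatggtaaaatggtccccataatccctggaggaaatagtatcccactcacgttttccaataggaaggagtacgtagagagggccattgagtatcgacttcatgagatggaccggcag

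The next pair lies side by side in one exon of Luc7l3, an RNA-binding protein associated with the U1 splicing particle, and was higher in ACC and in CA1.
Luc7l3 E021, chr11:94297068-94297167, minus strand: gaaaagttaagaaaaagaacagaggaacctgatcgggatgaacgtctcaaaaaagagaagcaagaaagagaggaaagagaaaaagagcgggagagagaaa
Luc7l3 E020, chr11:94297056-94297067, minus strand: gagaagaacggg

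The bin with the largest rise lies in Acadvl, a mitochondrial enzyme of fatty acid oxidation. It spans an intron of the other transcripts from its first to its last base, annotated as exon only in a retained-intron transcript, and the capitals mark the GT and AG at its ends. An annotated exon of another gene, Dvl2, also overlaps the bin, and whose reads were counted was not tested.
Acadvl E012, chr11:70011266-70011344, minus strand: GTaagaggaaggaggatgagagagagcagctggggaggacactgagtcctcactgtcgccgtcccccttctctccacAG

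Gm15800, which M21 names Hectd4, encodes another large ubiquitin ligase, and its bin had the largest fall among the members with the firmest placement. Sptbn1 encodes a beta spectrin of the membrane skeleton, and Cyfip2 a subunit of the WAVE complex that starts actin branching. Their coding exons are shown as a higher and a lower member of genes that shape the cell's skeleton, and were chosen after their values were seen.
Gm15800 E015, chr5:121289567-121289637, plus strand: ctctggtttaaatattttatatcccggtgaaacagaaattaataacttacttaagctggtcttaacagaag
Sptbn1 E014, chr11:30110726-30110922, minus strand: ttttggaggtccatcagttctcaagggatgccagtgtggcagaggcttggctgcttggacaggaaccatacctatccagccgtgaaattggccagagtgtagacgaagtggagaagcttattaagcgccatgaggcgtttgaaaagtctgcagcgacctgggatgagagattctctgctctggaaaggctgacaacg
Cyfip2 E027, chr11:46276779-46276907, minus strand: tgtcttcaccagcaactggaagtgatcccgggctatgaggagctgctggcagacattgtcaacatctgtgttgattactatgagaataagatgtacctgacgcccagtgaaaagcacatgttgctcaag

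Syn1 encodes synapsin, which tethers synaptic vesicles. Its 3 neighbouring coding exons were all lower, and they show how members of 1 gene can share the same transcripts.
Syn1 E009, chrX:20865119-20865261, minus strand: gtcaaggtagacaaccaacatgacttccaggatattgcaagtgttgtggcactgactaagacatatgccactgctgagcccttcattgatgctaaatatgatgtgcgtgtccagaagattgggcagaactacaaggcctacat
Syn1 E010, chrX:20865846-20865908, minus strand: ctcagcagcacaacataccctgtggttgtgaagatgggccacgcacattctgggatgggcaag
Syn1 E011, chrX:20907077-20907166, minus strand: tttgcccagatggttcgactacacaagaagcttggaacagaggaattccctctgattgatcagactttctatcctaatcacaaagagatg

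Of the 448 members 207 were higher and 241 lower after context plus shock, so that 46.2% were higher. With bin E001 kept, 258 of 508 bins were higher (50.8%), so the split depends on leaving it out. The authors' fit listed 1.26% of an implied 214083 bins in this comparison and 2.22% of an implied 209124 bins after context alone. Being missing from the context list says only that the bin's p there was above about 0.00222 or that it was not tested, and shock against context is not analysed here for bins. The genes were not always absent from the context list: 284 members (212 gene identifiers) lay in genes with some other bin listed after context, and 164 members (150 identifiers) lay in genes with none. Of these 164, 118 were higher (72.0%).

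The members stood close to the threshold. Their median adjusted p per the authors' deposited table was 0.0478, from 2.52e-10 to 0.0995, against 0.00447 for the shock values of the 1717 bins listed in both ACC tables. Of the members 230 had an adjusted p under 0.05, 67 under 0.01 and 22 under 0.001. Just inside the threshold were Kif1b E060 (0.0990), Pi4ka E003 (0.0990) and Secisbp2l E016 (0.0995) per the authors' deposited table. Just outside were bins that the context list also held near its end: Brap E022, Nell2 E019 and Pcnxl2 E038 had adjusted p-values after context of 0.0987, 0.0989 and 0.0990 per the authors' deposited table.

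Most deposited fold changes lay near 0. The median absolute log2 fold change was 0.18, 156 members reached 0.25, 50 reached 0.5 and 11 reached 1, and of these 11 bins 10 were lower. Size followed the level of the bin. Among the 38 members with a base mean under 20, 34 were lower and the median absolute log2 value was 0.85. Among the 369 between 20 and 1000, 196 were lower and the median was 0.18. Among the 41 at 1000 or more, 30 were higher and the median was 0.063. A bin with few reads can be listed only when its fold change is large, so this relation is partly set by the choice of members. The split also moved with it: 47 of the 156 members with an absolute log2 value of at least 0.25 were higher (30.1%), against 44 of the 67 with an adjusted p under 0.01 (65.7%).

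**Figure D1:**
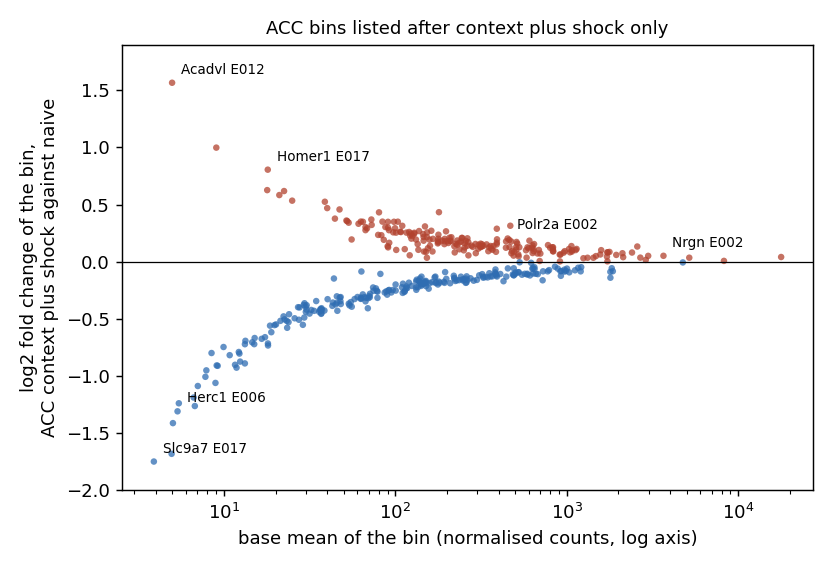
Log2 fold change of each of the 448 member bins in ACC (context plus shock against naive) against its base mean in normalised counts, on a log axis; red points are higher and blue points lower after training. The 38 bins under a base mean of 20 hold most of the large values and 34 of them are lower, while the 41 bins at 1000 or more lie close to 0.

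The smallest p among the higher members belonged to Polr2a E002, in the gene of the largest RNA polymerase II subunit. Its log2 fold change was 0.20 per the authors' deposited table, at a base mean of 452.3 (adjusted p = 2.52e-10). The bin, part coding and part UTR, has 1157 bases at chr11:69734410-69735566 (mm10, minus strand), 86.0% of the way along the exonic bases of the gene. Nrgn E002 came next: neurogranin binds calmodulin at the postsynaptic side, and its bin had a log2 fold change of 0.052 at a base mean of 3668 per the authors' deposited table (adjusted p = 7.78e-09). Atp6v0a1 E039, in the 3′ UTR of a subunit of the vesicular proton pump, had 0.13 per the authors' deposited table (adjusted p = 2.80e-06). Tspan5 E025 (a tetraspanin), Camta2 E003 (a calmodulin-binding transcription activator), Strbp E003 (an RNA-binding protein) and Abhd12 E002 (a lipase of lysophosphatidylserine) had 0.15, 0.15, 0.081 and 0.11 per the authors' deposited table. How the bin tables' log2 values were scaled was not stated, and some bins with a small p have values near 0, so they are not turned into folds here.

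Genes that overlap on the genome share 1 joined identifier in the bin tables, so their bins cannot be given to one gene alone, and 51 members under 33 joined identifiers are of this kind. The identifier of the spliceosomal scaffold Srrm2 and its neighbour AC122821.2 had 2 members among the largest rises at a base mean of at least 50, E034 and E030, both with a log2 fold change of 0.43 per the authors' deposited table (adjusted p of 1.47e-07 and 0.000183). The identifier with the most members, 7, joins the imprinted long noncoding RNA Meg3 with Gm27300 and 2 microRNA genes. Its bins E015, E021, E022, E030, E031 and E038 were higher, by log2 values of 0.093 to 0.21, and E016 had -0.41 per the authors' deposited table.

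Among the lower members the smallest p belonged to Sod2 E005, of the mitochondrial superoxide dismutase, with a log2 fold change of -0.084 per the authors' deposited table (adjusted p = 5.33e-05). Ywhaz E003, of a 14-3-3 adaptor, had -0.16 per the authors' deposited table. Calm3 E013 (calmodulin), Trim2 E007 (a ubiquitin ligase), Prkca E002 (protein kinase C alpha) and Celf2 E006 (a splicing regulator) had -0.088, -0.092, -0.17 and -0.18 per the authors' deposited table. The joined identifiers of the RNA helicase Ddx5 (E021) and of Pabpn1 and Bcl2l2 (E012) had -0.17 and -0.14 per the authors' deposited table. Both also held higher members: E016 of the Ddx5 identifier had 0.20 per the authors' deposited table. Bins E035, E041 and E042 of the Pabpn1 and Bcl2l2 identifier had 0.23, 0.63 and 0.62, at base means of 79.4, 17.9 and 22.4, per the authors' deposited table. Camk2a E028, of the postsynaptic kinase CaMKII alpha, was listed with an adjusted p of 0.000487 although its log2 fold change was only -0.0062 per the authors' deposited table.

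The largest fold changes lay at base means under 20. Slc9a7 E017, of a sodium-proton exchanger, had a log2 fold change of -1.75 at a base mean of 3.90, and Gm15800 E015 -1.68 at 4.95, per the authors' deposited table (adjusted p of 0.0719 and 0.0114). Herc1 E006, printed above, had -1.31 at 5.36, and Htt E034, of huntingtin, -1.06 at 8.92 per the authors' deposited table. On the higher side Acadvl E012, the retained intron printed above that an exon of Dvl2 overlaps, had 1.57 at a base mean of 4.98 per the authors' deposited table (adjusted p = 0.0327). Usp2 E027, of a ubiquitin protease, had 1.00 at 9.02 (adjusted p = 0.0565), and Homer1 E017, of a postsynaptic scaffold, had 0.81 at 18.0 (adjusted p = 0.0185), per the authors' deposited table. With so few reads per bin these values rest on small counts, and their counting error cannot be given without values per library. At a base mean of at least 50 the largest falls besides the Meg3 bin were Rab11fip2 E007 (-0.39), Ogt E011 (-0.38), Chd3 E051 (-0.37) and Dync1h1 E047 (-0.35), and the largest rises besides Srrm2 were Npepps E002 (0.37), Luc7l3 E020 (0.36) and Tmem131 E002 (0.36), all per the authors' deposited table.

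Direction followed the place of the bin in its gene. For 242 members the position could be inferred from bin number, strand and the GENCODE exons (for 181 of them the position was the same with all annotated transcripts). In the first 25% of the exonic bases 7 of 75 placed members were higher, between 25% and 50% 7 of 59, between 50% and 75% 25 of 34 and in the last 25% 65 of 74. Over the whole 5′ side, the first 50% of the bases, 14 of 134 were higher (10.4%), and in the last 25% the share was 87.8%. Placed members of the first 25% had a median base mean of 70.9 and length of 121 bases, those of the last 228 and 634.5. Level, length and position therefore overlap. At a base mean of at least 50, 13.8% of 94 were higher on the 5′ side and 87.7% of 73 in the last 25%. That cut was not planned for these shares. Bins listed in both ACC tables had 12 of 352 higher on the 5′ side and 391 of 393 in the last 25%, and bins listed after context only had 17 of 567 and 372 of 377. Bins of 1 gene share its reads, and the value of a bin is relative to its gene, so values at one end carry into the other and no test is given. RNA integrity and coverage along transcripts per library were not among the values used here, and their part in this order was not tested.

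**Figure D2:**
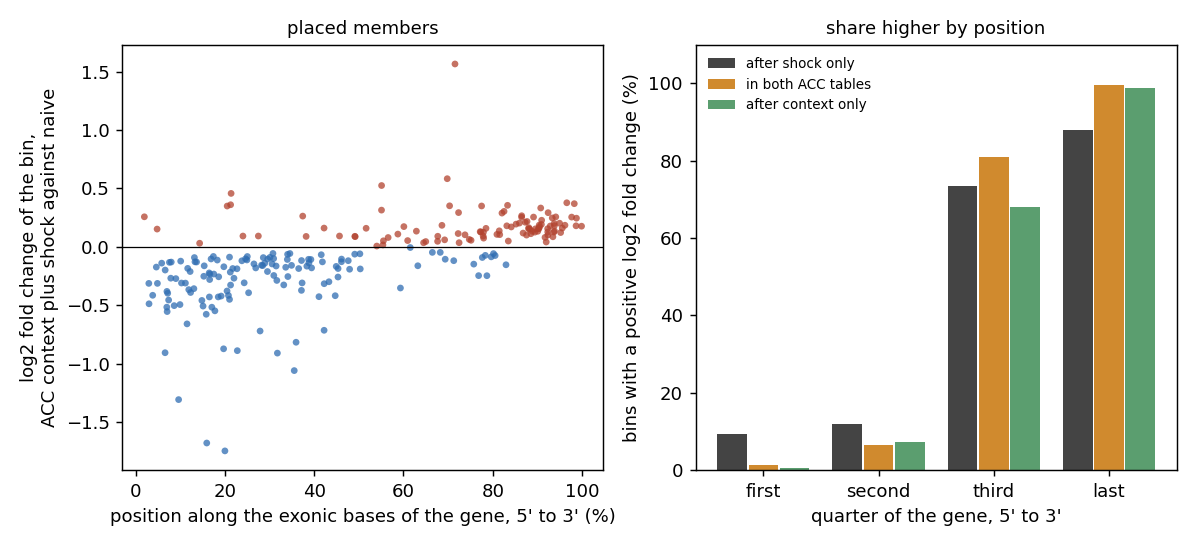
Left, log2 fold change of the 242 placed members in ACC against position along the exonic bases of the gene (percent, 5′ to 3′), red higher and blue lower; right, percent of bins with a positive value in each successive 25% of the exonic bases for members, bins in both ACC tables and bins listed after context only. Members go from 7 of 75 higher in the first 25% to 65 of 74 in the last.

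On the 5′ side, the members that went against this order came mostly from genes with no bin listed after context. In those genes 13 of 29 placed members of the 5′ side were higher, against 1 of 105 in genes that had a bin listed after context. In the last 25% the counts were 35 of 37 and 30 of 37. The lower members there, 2 and 7, came mostly from genes that had a bin listed after context. This split uses the ACC context list, which entered the choice of members and rests on the same naive libraries. The counts are therefore a description and no test. Higher members on the 5′ side included Luc7l3 E021 and E020, Sub1 E009, Fbxo7 E018, Sphk2 E003, Mlec E002, Rbm3 E018 and Araf E008, with log2 fold changes of 0.35, 0.36, 0.15, 0.26, 0.16, 0.031, 0.46 and 0.26 per the authors' deposited table. Rbm3 encodes a cold-induced RNA-binding protein, and its bin, 271 bases long, is annotated in a transcript subject to nonsense-mediated decay. Lower members in the last 25% included Trim2 E007, Cxcl12 E010, Nrxn3 E041, Map2 E064, Ywhaz E002 and Bcl11a E013, at -0.092, -0.15, -0.25, -0.058, -0.073 and -0.15 per the authors' deposited table.

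The order could be read without the annotation in genes that held members in both directions, since bin numbers run along the chromosome. Of 31 such identifiers 27 were single genes, and in 24 of these every higher bin lay 3′ of every lower bin, while in 3 the order was the reverse. One of the 3, AC144852.1, had bins with more reads (base means of 67.0 and 142.1) than the gene itself (51.2) per the authors' deposited table, and whose reads these are was not tested. Herc1 is one of the 24: E006 and E037 had log2 fold changes of -1.31 and -0.72, and E093 had 0.25, per the authors' deposited table. In Itpr1, the calcium release channel of the endoplasmic reticulum, E006, E014 and E020 had -0.44, -0.55 and -0.25 and E061 had 0.20 per the authors' deposited table. In Chd3, a chromatin remodeller on the minus strand, E051, E037 and E025 had -0.37, -0.25 and -0.19 and E002 had 0.27 per the authors' deposited table. Dnm1, the GTPase that pinches off endocytic vesicles, had -0.081, -0.11 and -0.12 in E032, E028 and E029 and 0.11 in E005 per the authors' deposited table. Sptbn1 had -0.17 and -0.13 in E026 and E025, and 0.17 and 0.35 in E014 and E009, per the authors' deposited table. Atp6v0a1, with -0.17 in E005 and 0.13 in E039 per the authors' deposited table, followed the same order.

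**Figure D3:**
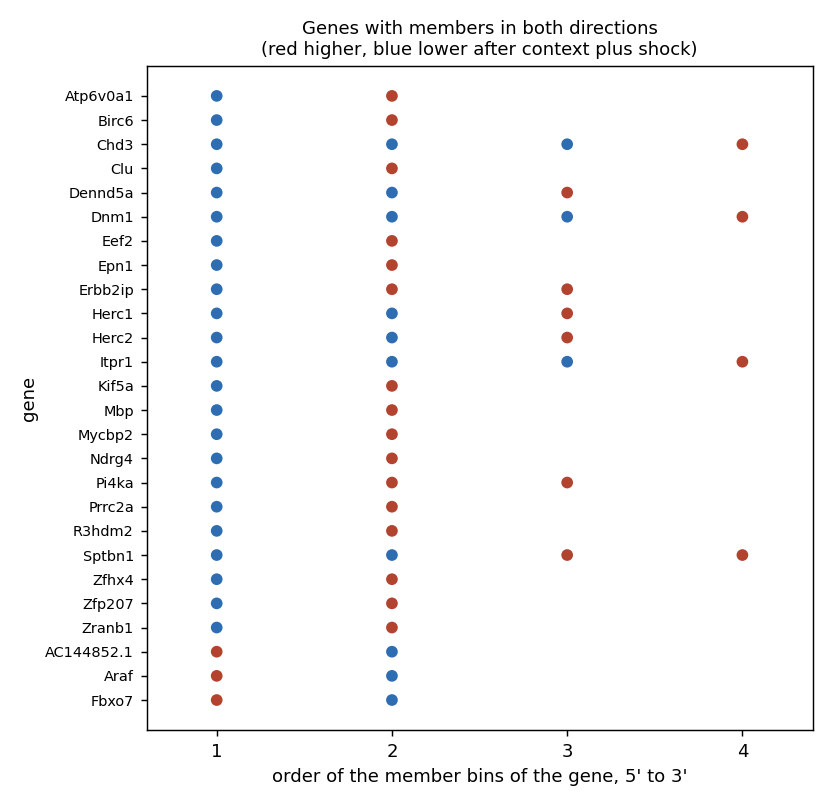
Member bins of 26 of the 27 single genes with members in both directions, set in their order from 5′ to 3′ (horizontal axis, rank within the gene); red bins were higher and blue bins lower after context plus shock. In 23 of those drawn the red bins lie to the right of the blue ones, and AC144852.1, Araf and Fbxo7 show the reverse.

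By annotation, 29 of 38 placed members in 3′ UTRs were higher, 2 of 8 in 5′ UTRs and 29 of 131 in bins that were coding throughout. Another 54 bins were part coding and part UTR, and 34 of them were higher. Wholly coding bins lay at a median of 29.5% along the gene and 3′ UTR bins at 84.4%, so annotation and position cannot be told apart here. Bins annotated in a retained-intron transcript, and in no coding or decay transcript, included 7 placed members, of which 6 were higher. In this class 1 of 5 was higher among the bins in both ACC tables and 3 of 20 among those listed after context only. Such a bin need not be an intron, and only Acadvl E012 was checked for intron ends. Members of this class lay at a median of 71.5% along the gene. In both ACC tables the median was 44.2%, and after context only it was 44.0%. The counts of this class are small, and the part of position in them was not tested. Among the 397 members under single identifiers, 112 on the plus strand were higher and 100 lower, and on the minus strand 71 and 114. Bin numbers run along the chromosome, so leaving out E001 removed the 3′-most bin of minus-strand genes and the 5′-most bin of plus-strand genes. The split by strand therefore depends on that choice, and was not counted with E001 kept. Of the members 102 lay next to another bin of the shock list, and in 85 of these every listed neighbour had the same direction. As many as 303 identifiers held 1 member, 42 held 2, 10 held 3 and 6 held 4.

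The genes around the members were abundant. Their median gene base mean was 4084 in ACC after shock, against 444.0 over all genes, and 329 of them had a gene value in that table (325 protein-coding single genes stood among the members' identifiers, with 3 lincRNAs and 1 antisense gene). At a deposited adjusted p under 0.05, 55 of the 329 were higher after context plus shock (16.7%, against 19.8% of all genes) and 147 lower (44.7%, against 21.8%). After context alone 20 were higher (6.08%, against 9.37%) and 87 lower (26.4%, against 10.2%). Both comparisons use the naive ACC libraries that entered the choice of members, so nothing is read from these shares.

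A bin and its gene need not move together. Of the 207 higher members 40 were in genes called higher, 67 in genes called lower and 76 in genes not called, the rest being in identifiers without a gene value. Of the 241 lower members 27 were in genes called higher, 110 in genes called lower and 77 in genes not called. Sphk2, a sphingosine kinase, was higher as a gene, with a log2 fold change of 0.39 per the authors' deposited table, and its bin E003 had 0.16 relative to the gene. Herc1 was lower as a gene after shock and after context, by -0.29 and -0.31 on the log2 scale per the authors' deposited table, while E093 was higher relative to it. Syn1 was higher as a gene, at 0.10 after shock and 0.13 after context, and its 3 members were lower relative to it, at -0.064, -0.10 and -0.092 per the authors' deposited table. Luc7l3 had gene values of -0.0085 after shock and -0.10 after context, neither called per the authors' deposited table (adjusted p of 0.873 and 0.423).

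**Figure D4:**
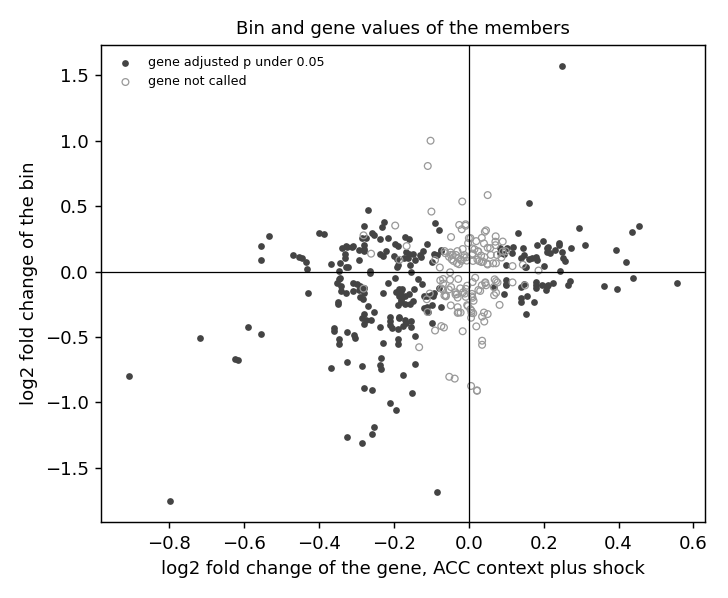
Log2 fold change of each member bin (vertical) against that of its gene (horizontal), both in ACC after context plus shock against naive; filled points are genes with a deposited adjusted p under 0.05 and open points are genes not called. Members lie on every side of both zero lines, with 110 lower bins in genes called lower and 67 higher bins in genes called lower.

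In functional lists, alternatively spliced neuronal genes held members in 21 of 103 measured genes, against 381 of 15455 over all genes (2.47%) and 6.70% of the 4728 genes with a base mean of at least 1000. Neither background is matched to the lists for level or for the number of bins per gene, so nothing is read from these shares. Of their 27 member bins 13 were higher and 14 lower. Among them were Sptan1 E075, of alpha spectrin (0.13), Grin1 E003, of the obligatory NMDA receptor subunit (0.18), Dlg4 E046, of the postsynaptic scaffold PSD-95 (0.083), and Arhgef7 E031, of a Rac exchange factor (0.14), as log2 fold changes per the authors' deposited table. Cytoskeleton, spectrin and motor genes held members in 18 of 104 genes, with 9 bins higher and 17 lower. Ppp1r9b E004 (spinophilin), Kif5c E020 (a kinesin) and Dync1h1 E011 (the dynein heavy chain) had -0.12, -0.091 and -0.87 per the authors' deposited table. Cyfip2 E027, printed above and not of that list, had -0.19 per the authors' deposited table.

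Kinase and phosphatase genes held members in 18 of 101 genes, with 8 bins higher and 15 lower. Mapk10 E004, a coding bin of only 5 bases in the gene of the neuronal kinase JNK3, had a log2 fold change of 0.16 per the authors' deposited table (adjusted p = 0.00111). Gnao1 E029, of an inhibitory G protein subunit, and Gnas E043, of the stimulatory one, had 0.081 and 0.12 per the authors' deposited table. Presynaptic genes held members in 9 of 75 genes (4 bins higher, 11 lower), Synj1 E039, of the phosphatase synaptojanin, at -0.31 per the authors' deposited table. Synaptic adhesion and scaffold genes held members in 7 of 55 genes (4 higher, 3 lower), with Dlgap1 E007, of a postsynaptic scaffold, at -0.42 per the authors' deposited table.

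Ion channel genes held members in 7 of 77 genes (9.09%, with 3 bins higher and 9 lower), among them Ryr2 E075 at -0.93 per the authors' deposited table. Splicing factors held them in 9 of 88 genes (10.2%, with 8 bins higher and 5 lower) and chromatin regulators in 9 of 124 (7.26%, with 6 and 6). Receptor genes held them in 3 of 59 genes (5.08%), Grin2b E013 at -0.80 and the joined identifier of Gria2 (E015) at -0.23 per the authors' deposited table. The share over genes with a base mean of at least 1000 was 6.70%. Ribosomal and respiratory chain genes held 3 in 130, immediate early genes 2 in 32 and astrocyte markers 2 in 25, and the only myelin gene of 31 was Mbp (E028 0.041, E015 -0.083 per the authors' deposited table). Microglial, endothelial and protocadherin lists held 0 members in 21, 23 and 2 measured genes.

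CA1 gave readouts that the choice of members did not use. There the lists of bins were short, with 0.0924% of bins listed after context and 0.0902% after context plus shock. Of the 448 members 12 were in the context list (2.68%) and 10 in the shock list (2.23%), 15 in either. The members lie in abundant genes, and these shares are not matched for level to those over all bins. In 5 of the 15 the direction was that of ACC and in 10 it was the opposite. The other ACC bins showed this as well: among bins shared by both ACC lists, 49 were in a CA1 list (2.85%), 40 in the opposite direction, and among those listed after context only, 43 were (2.10%), 37 in the opposite direction. The position of higher and lower bins also differed in CA1: of the listed CA1 bins that could be placed on the 5′ side, 34 of 39 after context and 28 of 33 after shock were higher, and in the last 25% 1 of 25 and 3 of 21. Whether a member's direction in CA1 follows from its position was not tested.

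Among the bins with the same direction, Luc7l3 E021 had log2 fold changes of 0.35 in ACC, 0.53 in CA1 after context and 0.50 after shock, per the authors' deposited table. Its neighbour E020 had 0.36 in ACC and 0.46 in CA1 after context per the authors' deposited table. Nrgn E002 had 0.052, 0.051 and 0.079, and Sphk2 E003 0.16, 0.13 and 0.13, per the authors' deposited table. Araf E021, of a RAF kinase, had -0.11 in ACC and -0.16 in CA1 after context per the authors' deposited table. Luc7l3, Sphk2 and Araf had no bin in the ACC context list.

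Among the bins with the opposite direction, Dgkz E018 lies in a diacylglycerol kinase, with 387 bases annotated in a retained-intron transcript and no coding one. It had 0.29 in ACC, and -0.40 and -0.60 in CA1 after context and after shock, per the authors' deposited table. The Srrm2 bins E030 and E034 had 0.43 in ACC and between -0.29 and -0.43 in CA1 per the authors' deposited table. Arhgap32 E038 (a GTPase-activating protein), Erbb2ip E003 (a scaffold of ErbB receptors) and Shoc2 E010 (a RAF pathway scaffold) had 0.18, 0.16 and 0.087 in ACC and -0.35, -0.20 and -0.12 in CA1 after context per the authors' deposited table. Zfp207 E034, Mical2 E036 and Usp7 E003 had 0.21, 0.22 and 0.13 in ACC and -0.22, -0.37 and -0.18 in CA1 after shock per the authors' deposited table. Phc3 E004, of a Polycomb protein, was 0.036 in ACC, -0.068 in CA1 after context and -0.048 after shock per the authors' deposited table.

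**Figure D5:**
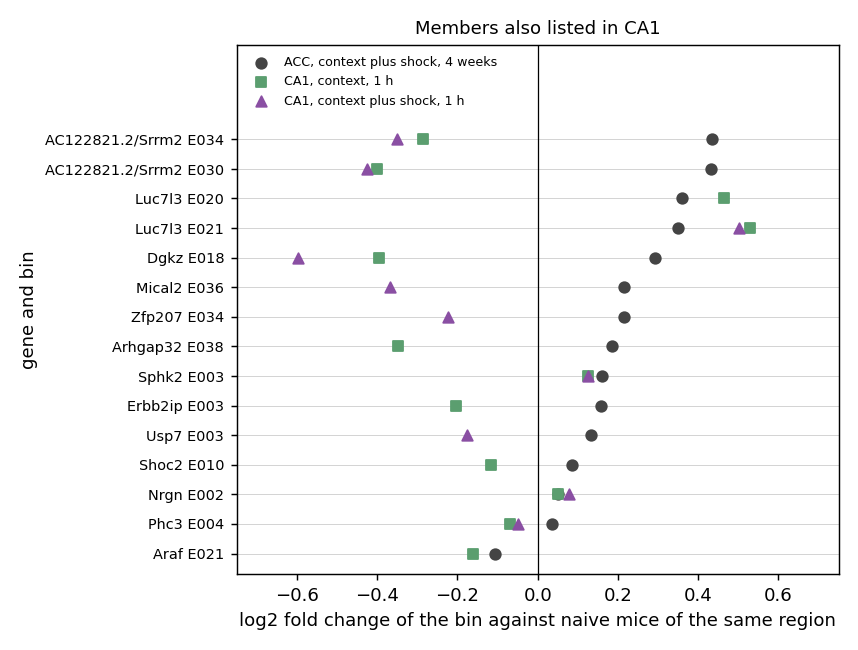
Log2 fold change of the 15 members that were also listed in CA1 (horizontal axis), in ACC 4 weeks after context plus shock (circles), in CA1 1 h after context (squares) and in CA1 1 h after context plus shock (triangles), each against naive mice of the region. The CA1 symbols lie on the side of the ACC circle in 5 bins and on the other side of 0 in 10.

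As whole genes, the 329 measured member genes had 44 called higher in CA1 after context (13.4%, against 4.62% of all genes) and 15 called lower (4.56%, against 3.41%). After context plus shock in CA1, 21 were higher (6.38%, against 3.21%) and 8 lower (2.43%, against 2.84%). The members' genes are more abundant than most, and these shares are not matched for level. Where a member bin was lower in ACC, 25 of 179 genes were higher and 3 lower in CA1 after context. Where it was higher, the counts were 23 and 13 of 177.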

How the data were processed

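RNA from 29 libraries in 6 groups was analysed through 8 deposited tables of the authors' own comparisons. Per the submitters' processing notes, CASAVA 1.8.2, STAR 2.3.0e, SAMtools and DESeq2 were used with build mm10; their roles, the tool behind the bin tables, the annotation and the counting strand were not given in the sources used here. The authors deposited, per the file headers, 4 values for each gene or bin: the base mean (a normalised count signal), the log2 fold change, its p-value and the adjusted p. The bin tables list only an adjusted p under 0.1. No count test was planned or run, and depth per library is unknown.

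The number of bins tested was computed from the Benjamini-Hochberg adjustment. Genes were called at a deposited adjusted p under 0.05. Direction was checked from base means: between the ACC tables, a larger difference in fold change went with a larger log2 base mean ratio (slope 0.525, r = 0.98 across 15243 genes). For 2036 bins the slopes were 0.539 on the bin's difference and 0.471 on the gene's, so bin values are relative to the gene.

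Bins were placed after the data were seen, by cutting GENCODE M21 exons at all boundaries, with the transcript set in which log2 base mean followed log2 bin length best within genes (r = 0.650 over 2789 bins; 0.0881 with bin numbers moved up by 1, and 0.480 with all transcripts). Placed bins lie in genes whose ends equal the deposited ones and do not move in neighbouring transcript sets; 14 placed members also lie over an exon of another gene.

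Members and the 17 gene lists were chosen with earlier results of these data known. Named bins are the 10 smallest p in each direction, the 5 largest and 5 smallest fold changes at a base mean of at least 50, the genes with the most members or with both directions, the 3 smallest p per list, members listed in CA1 and the 3 nearest the threshold; others were chosen after their values were seen, and a few named by the rule are not reported here. The number of bins tested, the choice of members and the length check of placement were tested on simulated data, with the transcript set known. The other steps, and the choice of the transcript set, were not. Python 3.11.15 with pandas 2.3.3, numpy 2.4.6 and matplotlib 3.10.9 was used.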

Additional observations from a re-analysis of the deposited data

How the results depend on the processing

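No paired analysis was possible because the tables hold no values per library; leaving out libraries and other normalizations were not run for the same reason. Of 36 alternatives for 9 results, 21 stayed within 1.5 times the reported count or, for shares, within the 95% binomial interval. That interval treats bins as independent, though bins of 1 gene share reads. Each alternative share also comes from a part of the same bins, so staying inside the interval is no test of the share. Member bins fell from 448 to 230 (124 higher) at an adjusted p under 0.05, 67 (44 higher) under 0.01 and 156 (47 higher) at an absolute log2 fold change of at least 0.25. In genes with no bin listed after context there were 164 (118 higher). Their 137 measured genes, against 329, had 77 calls in ACC after shock (56.2%, against 61.4%), 35 in ACC after context (25.5%, against 32.5%), 24 in CA1 after context (17.5%, against 17.9%) and 13 in CA1 after shock (9.49%, against 8.81%), so the counts are over fewer genes. At a gene adjusted p under 0.01 the calls were 69 in ACC after context, 22 in CA1 after context and 12 in CA1 after shock. The shares by position were 88.5% and 10.9% higher with the firmer placement, an alternative chosen after seeing the data. Bins with few reads, joined identifiers and unlisted bins limit what can be said, since unlisted bins have no value here.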

Other observations

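Of the 3 genes whose higher member lay 5′ of the lower one, none had a bin in the ACC context list. In Fbxo7, of a ubiquitin ligase subunit linked to parkinsonism, the bin E018, part coding and part UTR, was at 0.26 (log2 fold change) and the 3′ UTR bin E020 at -0.12 per the authors' deposited table. In Araf E008 and E021 had 0.26 and -0.11 per the authors' deposited table. In AC144852.1 the neighbouring bins E002 and E003 had 0.28 and -0.13 per the authors' deposited table, at base means above that of the gene, as in 4 members of 3 genes in all.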
